A study of Mus musculus with 8 samples.

Results

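Neurons were captured alongside the glia of the adult mouse optic nerve (ON) in all 8 single-nucleus RNA sequencing libraries. Of 40845 barcodes with at least 1000 unique molecular identifiers (UMIs, one per captured transcript) and under 5% of UMIs from mitochondrial genes, 231 (0.566%) met the rule below. They are called neurons here, although 49 of them fell in groups (subclusters, below) with fibroblast or pituitary genes among their lead genes. The neurons were chosen by their own counts of marker transcripts. A barcode was taken when it held at least 4 of the 6 transcripts *Syt1*, *Snap25*, *Rbfox3*, *Snhg11*, *Grin2b* and *Gabrb2*, fewer than 3 UMIs of the oligodendrocyte (OL) gene *St18*, and fewer than 3 UMIs of the astrocyte genes *Aqp4* and *Slc4a4* together. The 4 control libraries came from Piezo2f/f mice without cre (replicates 1 to 4) and the 4 conditional knockout (cKO) libraries from Olig2-cre;Piezo2f/f mice (replicates 10 to 13). All mice were female, on a C57BL/6J background and at postnatal day 120, and all carried the floxed *Piezo2* allele. Each library pooled 6 ONs of 3 mice, so every p-value below measures the spread between such pools. The cre sequence sits in *Olig2*, so the cKO mice also carried only 1 intact *Olig2* allele. The study used it to delete *Piezo2* in the OL lineage. Whether it also acted in the neurons counted here was not tested.

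The ON holds the axons of retinal ganglion cells and the glia that ensheathe them, and the cell bodies of neurons lie in the retina and the brain. GABAergic neurons make GABA with glutamate decarboxylases (*Gad1*, *Gad2*) and load it with *Slc32a1*, whereas glutamatergic neurons load glutamate with *Slc17a6*, *Slc17a7* or *Slc17a8*. At its central end the ON joins the optic chiasm, which lies under the hypothalamus, directly below the suprachiasmatic nucleus (SCN, the circadian pacemaker) and near the pituitary.

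The 8 libraries held 39628926 to 56541132 UMIs, and the median neuron held 6486 UMIs against 3019 in OLs and 3335.5 in astrocytes taken by like rules. In each library the median neuron held 4704 to 9344 UMIs. Of the barcodes kept, 188 had a sequence that occurred in more than 1 library, among them 3 neuron barcodes, and 0 were neurons in both. The targeted gene could not check the genotype labels, because counts covered the whole of *Piezo2* and transcripts without the floxed exons still count. In OLs, *Piezo2* stood at 442, 358, 344 and 416 CPM (UMIs of the gene scaled to a common library total) in controls 1 to 4. The libraries labelled cKO 10 to 13 had 495, 473, 508 and 466 CPM, each above every control library. The reason was not tested. In neurons *Piezo2* had 3, 5, 11 and 2 UMIs in controls 1 to 4 and 1, 2, 0 and 6 UMIs in cKO 10 to 13. It was found in 7.36% of neurons and 63.7% of OLs.

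The rule itself fixed the shares of its markers. *Syt1*, a calcium sensor of synaptic vesicles, had a UMI in 92.6% of neurons, *Snap25*, a part of the vesicle fusion complex, in 95.7%, and *Rbfox3*, the NeuN antigen, in 62.8%. Of the members, 84 held 4 of the 6 markers, 87 held 5 and 60 held 6. Just outside, 91 barcodes held 3 markers at a median of 4100 UMIs. A further 207 barcodes with at least 4 markers were left out by the *St18* or astrocyte limits, at a median of 14410 UMIs. Among the 16 further neuron genes, which the rule did not read, all had a UMI in at least 5% of neurons. The noncoding RNA *Meg3* was found in 98.3%, the splicing factor *Celf4* in 92.6% and the ciliary gene *Ahi1* in 93.1%. With all nuclei reduced at random to 1000 UMIs each (thinned), 15 of the 16 were more frequent in neurons than in both OLs and astrocytes. The exception was the tubulin gene *Tubb3*, with 5.63% of thinned neurons and 13.3% of thinned OLs.

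Transcripts that mark other cells were also counted in the neurons. Free RNA from broken cells can enter any droplet, and *Mbp*, a myelin protein, had a UMI in 74.5% of neurons. None of the 6 OL markers exceeded its share in OLs after thinning, an outcome that the rule itself fixed for *St18*. At least 2 UMIs of the markers of a single other cell type were held by 164 of the 231 neurons. The types counted were precursors, myeloid, endothelial, mural and T cells and fibroblasts, and OL and astrocyte markers were left out. *St18*, *Aqp4* and *Slc4a4* were all at 0 in 131. The precursor gene *Lhfpl3* was found in 61.0% of neurons and 23.8% of OLs, and the microglial gene *P2ry12* in 36.4% and 10.5%. The 6 precursor markers summed to 707 CPM in neurons and to 188 to 272 CPM in empty droplets, and 3 of them were above both glia after thinning. Whether the neurons make these transcripts was not tested. The neurons were also the deeper nuclei, and the class shares without those 164 nuclei stand with the other alternatives.

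Neurons were unevenly spread over the libraries. Controls 1 to 4 held 34, 16, 78 and 13 neurons, or 0.582%, 0.409%, 1.68% and 0.352% of their barcodes. The libraries labelled cKO 10 to 13 held 38, 14, 11 and 27, or 0.797%, 0.200%, 0.255% and 0.406%. Control 3 was the highest, with 33.8% of all neurons and an exact 95% binomial interval of 1.33 to 2.09%, and the intervals of the other 7 libraries lay below it. All such intervals cover counting error only. Shares averaged 0.755% ± 0.623 (SD, n = 4) in controls and 0.414% ± 0.270 (SD, n = 4) in cKO. The difference of −0.341 points was smaller in size than the SD of the controls and larger than that of cKO. A two-sided exact permutation test gave p = 0.457, where 0.0286 is the smallest p possible. Without control 3 the difference was −0.0332 points (exact permutation p = 0.886).

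**Figure D1:**
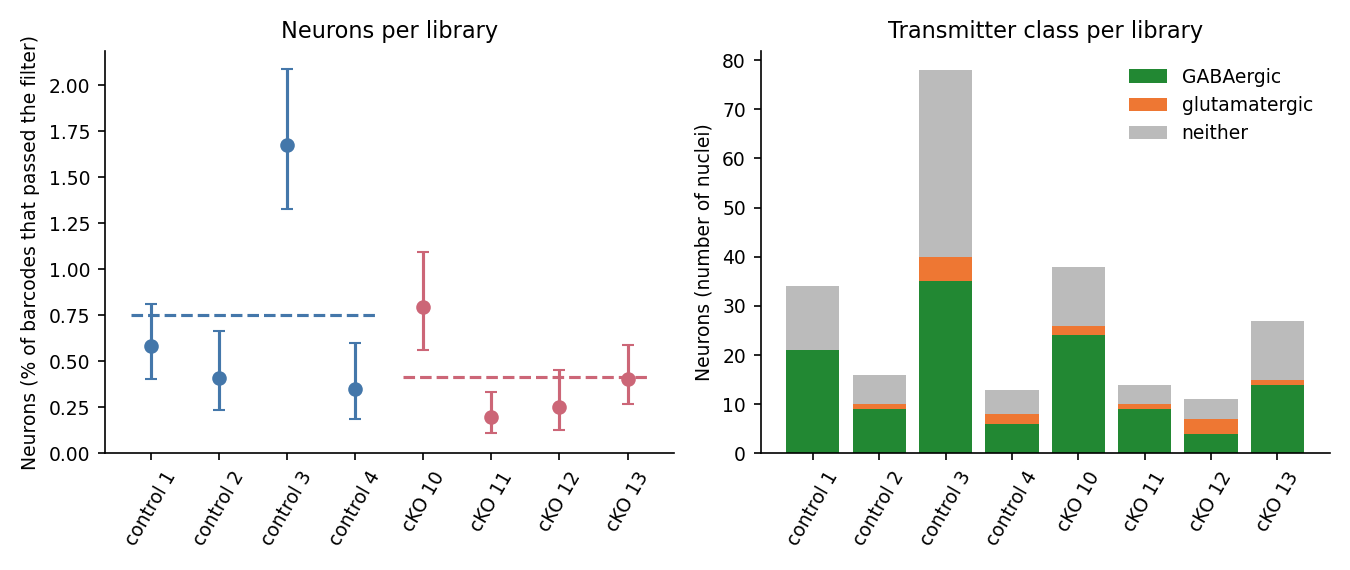
Left, neurons as a percentage of barcodes in each library (points) with exact 95% binomial intervals (bars) and the mean of each genotype (dashed lines). Right, the number of neurons per library stacked by transmitter class. Control 3 stands highest at 1.68%, and controls and cKO overlap.

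GABAergic neurons outnumbered glutamatergic ones. A nucleus was called GABAergic with at least 2 UMIs of *Gad1*, *Gad2* and *Slc32a1* together and more of these than of *Slc17a6*, *Slc17a7* and *Slc17a8*, and glutamatergic in the converse case. By this rule 122 neurons (52.8%) were GABAergic, 15 (6.49%) glutamatergic and 94 (40.7%) in neither class. The class is a range of counts, not a cell type, and the share moved with its limit. With 1 UMI enough for a class, 152 neurons were GABAergic and 31 glutamatergic, and with 3 UMIs needed 103 and 11. After thinning to 1000 UMIs 23 were GABAergic, 13.1% of neurons on average in controls and 9.31% in cKO. Without the 164 nuclei holding at least 2 UMIs of precursor, myeloid, endothelial, mural, fibroblast or T-cell markers, 29 were GABAergic and 2 glutamatergic. Exactly 2 UMIs decided 19 of the GABAergic and 4 of the glutamatergic calls. Of the 94 in neither class, 43 had no UMI of any of the 6 genes, 30 had a single GABA UMI, 16 a single glutamate UMI and 5 had both. Neurons in neither class were also shallower, with a median of 4972 UMIs against 6926 in GABAergic and 10502 in glutamatergic nuclei.

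Gene by gene, *Gad2* led. It had a UMI in 140 neurons (60.6%) and in 0.80% of OLs, *Gad1* in 102 (44.2% against 0.90%) and *Slc32a1* in 52 (22.5% against 0.26%). After thinning to 1000 UMIs, *Gad2* was in 21.3% of neurons and 0.191% of OLs, and *Gad1* in 12.9% and 0.210%. The GABA genes stood far above their share in OLs on both scales. *Slc17a6*, the transporter of subcortical glutamatergic neurons, had a UMI in 31 neurons (13.4% against 0.12% of OLs), and *Slc17a7*, the cortical one, in 13 (5.63% against 0.18%). *Slc17a8* was seen in 1 neuron. *Gad1* and *Slc17a6* occurred together in 5 nuclei, and 19 neurons held UMIs of both transmitter groups. Within the GABAergic class *Gad2* was in 115 of 122 nuclei, and within the glutamatergic class *Slc17a6* was in 12 of 15.

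The class shares did not differ between genotypes beyond the spread of the libraries. GABAergic nuclei made up 61.8%, 56.3%, 44.9% and 46.2% of the neurons in controls 1 to 4 and 63.2%, 64.3%, 36.4% and 51.9% in cKO 10 to 13. The groups overlapped, with means of 52.3% ± 8.13 and 53.9% ± 13.0 (SD, n = 4 each), a difference of 1.65 points (exact permutation p = 0.914). Glutamatergic nuclei made up 0%, 6.25%, 6.41% and 15.4% in the controls and 5.26%, 7.14%, 27.3% and 3.70% in cKO, again with overlap. Their means were 7.01% ± 6.33 and 10.8% ± 11.0 (SD, n = 4 each, exact permutation p = 0.657). With 11 to 78 neurons per library these shares are coarse: the 27.3% in cKO 12 was 3 of 11 nuclei, with an exact interval of 6.02 to 61.0%.

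Of the genes of other transmitters, 3 of 6 catecholamine genes were in at least 5% of neurons. *Slc18a2* loads dopamine and other monoamines into vesicles. It had a UMI in 52 neurons (22.5%) and in 4.14% of OLs, or 5.95% and 1.15% after thinning. In controls 1 to 4 it was found in 32.4%, 43.8%, 23.1% and 23.1% of neurons, and in cKO 10 to 13 in 18.4%, 21.4%, 0% and 11.1%. Every control share exceeded every cKO share. This order was noticed after the values were seen, and how many other genes show one like it was not counted. *Slc18a2* did not pass the filter on low counts. Without that filter edgeR gave it a log2 fold change of −1.78 (cKO minus control, edgeR adjusted p = 0.00951). Of its 129 UMIs, 55.8% were in control 3. That setting called 66 of 21010 genes, 35 of them with most UMIs in 1 library. Subcluster 2 below, which held 23 of the 52 nuclei with *Slc18a2*, had 7, 4, 17 and 3 nuclei in controls 1 to 4 and 1, 2, 1 and 4 in cKO 10 to 13. *Ddc*, the decarboxylase that makes dopamine and serotonin, was found in 34 neurons (14.7% against 5.59% of OLs) and *Th*, the first enzyme of dopamine synthesis, in 13 (5.63% against 0.0341%). *Slc18a2* was joined by *Ddc* in 16 nuclei and by *Th* in 5, and the dopamine transporter *Slc6a3* was seen in 1. A full noradrenergic, serotonergic, cholinergic, histaminergic or glycinergic set was not seen. The genes *Dbh*, *Slc6a2*, *Tph2*, *Slc6a4*, *Fev*, *Chat*, *Slc18a3*, *Hdc* and *Slc6a5* had 0 UMIs in all 231 neurons, which allows a share of neurons with a UMI of up to 1.30% for each (3 of 231).

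Peptide and hormone transcripts were read against their shares in glia. Of 30 neuropeptide genes, 11 had a UMI in at least 5% of neurons, and 22 were more frequent in thinned neurons than in both thinned OLs and astrocytes. *Gal* (galanin) was found in 28 neurons (12.1%) and 0.38% of OLs, and *Nts* (neurotensin) in 24 (10.4%) and 0.20%. *Tac1* (substance P) was found in 16 neurons, *Penk* (enkephalin) in 15, of which 9 came from cKO 10, *Sst* (somatostatin) in 8 and *Vip* in 8, of which 7 came from control 3. *Crh*, *Kiss1*, *Ghrh*, *Rln3* and *Ucn3* had 0 UMIs. *Agrp* had a UMI in 39.4% of neurons, but its thinned share was 8.05% in neurons and 8.24% in astrocytes. It was therefore not taken as a trait of the neurons, and its source was not tested.

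*Avp* (vasopressin) and the pituitary hormones were concentrated in control 3, where glia held them too. *Avp* had a UMI in 5.88%, 6.25%, 39.7% and 7.69% of neurons in controls 1 to 4 and in 0%, 7.14%, 9.09% and 0% in cKO 10 to 13. In OLs of control 3 its share was 22.2%, and its level in empty droplets there was 740 CPM. *Prl* (prolactin) was found in 76.9% of neurons and 80.7% of OLs of control 3, and *Gh* (growth hormone) in 64.1% and 58.7%. In that library these shares were alike in neurons and OLs, where the median neuron held 6138.5 UMIs and the median OL 3231. A UMI of *Prl* or *Gh* there was therefore not used by itself to mark a nucleus. The source of these UMIs was not tested. *Oxt* (oxytocin) was more evenly spread, with 0 to 15.4% of neurons in the control libraries and 7.41 to 21.4% in cKO, against 0.619 to 8.50% of OLs.

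**Figure D2:**
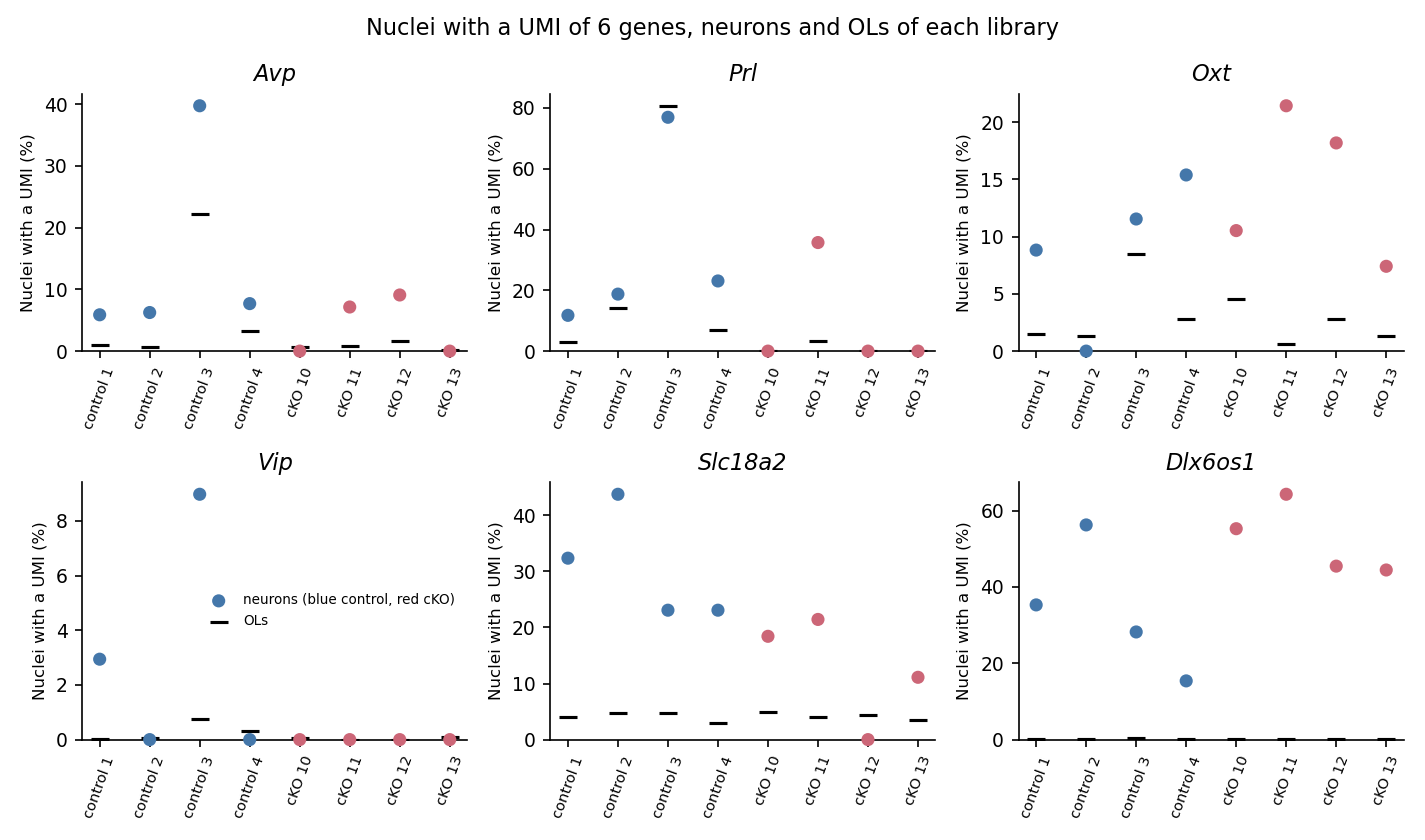
Percentage of neurons (points, blue for control and red for cKO) and of OLs (dashes) with at least 1 UMI of each of 6 genes, by library; each panel has its own linear scale. *Prl* in control 3 is as frequent in OLs (80.7%) as in neurons (76.9%), whereas *Dlx6os1* is at or near 0 in OLs of every library.

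A few nuclei held most of the hormone transcripts. For *Avp*, 2 nuclei of control 3 held 156 and 140 UMIs, which is 35.5% and 31.9% of the 439 *Avp* UMIs in neurons, and the highest OL held 67. Both also held *Sim1*, a factor of magnocellular hypothalamic neurons, with 13 and 4 UMIs. For *Oxt*, 1 nucleus of cKO 13 held 150 UMIs, 75.8% of the 198 in neurons, with *Sim1*, *Otp* and *Caprin2* also detected, while the next nucleus held 5 and the highest OL 10. The next neuron after these held 43 UMIs of *Avp*, so both peptides sat mainly in 3 nuclei. *Pomc*, the precursor of ACTH and melanocortins, reached 542 of 4250 UMIs in 1 nucleus of control 3, and 313, 276 and 122 UMIs in the next 3. These 4 nuclei also held the corticotroph factor *Tbx19* and *Pax7*, a factor of melanotrophs that was looked up after the values were seen. By *Pomc* and these factors the 4 go against the neuron label. All 4 had 0 UMIs of *Grin2b* and *Gabrb2*, which the rule read, but 84 of the 231 neurons held only 4 of its 6 markers. *Prl* reached 266, 226, 162, 152 and 111 UMIs in 5 nuclei of control 3, out of 1340 in all neurons, and the highest OL held 540. Pituitary hormone genes took over 1% of the UMIs in 10 of the 231 neurons.

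Of the 11 genes of the subpallium list, which is of the ventral forebrain, 5 were in at least 5% of neurons, and the median was 4.76%. The Dlx genes, which specify GABAergic neurons of the subpallium, and their companion RNA *Dlx6os1* were far above glia. *Dlx6os1* was found in 92 neurons (39.8%) and 0.171% of OLs, *Dlx1* in 39 (16.9% against 0.376%) and *Dlx6* in 20 (8.66% against 0.0683%). All 11 genes of the subpallium list were more frequent in thinned neurons than in thinned OLs and astrocytes. *Emx1* and *Neurod6*, factors of cortical excitatory neurons, had 0 UMIs.

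All 10 genes of the SCN list were above both glia after thinning. *Zfhx3*, a factor of the SCN that glia also express, was found in 158 neurons (68.4%) and 22.6% of OLs, or 41.6% and 7.79% after thinning. *Rorb*, a nuclear receptor of the SCN and other sensory regions, was found in 105 (45.5%) and 2.23%. *Syt10*, a synaptotagmin much used to mark the SCN, was in 38 neurons, of which 21 came from control 3, and *Rgs16*, a regulator of G-protein signalling, in 30, of which 18 came from control 3. Control 3 also held 9 of the 10 neurons with *Lhx1*, a factor of SCN maturation, and 8 of the 12 with *Six6*, an eye and hypothalamus factor.

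Other hypothalamic and striatal genes were also found. *Isl1*, a factor of striatal and hypothalamic neurons, was in 27 neurons (11.7%) and 0.0293% of OLs, and *Rgs9*, a striatal regulator, in 79 (34.2%) and 0.732%. *Drd1* and *Drd2*, the main dopamine receptors, were in 16 and 12 neurons. Of the 14 hypothalamic genes, 3 were in at least 5% of neurons and 3 (*Nkx2-4*, *Nr5a1* and *Bsx*) were at 0. *Adarb2*, an interneuron gene, was in 117 neurons (50.6%), *Reln* (reelin) in 64 and *Calb2* (calretinin) in 25. Of the 8 genes of the preoptic area and septum, 6 were in at least 5% of neurons and 4 were above both glia after thinning, and of the 7 thalamus genes these counts were 3 and 2. *Zic1* of the former list was in 5.83% of thinned neurons and 29.6% of thinned astrocytes, and *Tcf7l2* of the latter in 3.17% and 25.8%.

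Genes of the hindbrain and of peripheral ganglia were at or near 0. Of the 12 midbrain and hindbrain genes, 5 were at 0 and none was in at least 5% of neurons; the Hox genes *Hoxa5*, *Hoxb3*, *Hoxb5* and *Hoxc5* were among those at 0. Of the 10 genes of peripheral ganglia, 8 were at 0. Retinal ganglion cells send their axons through the ON, and 4 of the 8 genes on their list (*Pou4f2*, *Pou4f3*, *Isl2* and *Tbx20*) were at 0, while *Pou4f1* was seen in 1 neuron. The most frequent was *Thy1*, a surface protein of many kinds of neuron, in 47 neurons (20.3%) and 0.751% of OLs. *Rbpms*, their usual marker, was in 7.36% of neurons against 5.58% of OLs and 13.7% of astrocytes. *Onecut1*, which the retina list holds for horizontal cells, was in 22 neurons (9.52%) and 0.00976% of OLs, in every library, at 6.25 to 23.1%.

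Clustering of the 231 neurons gave 10 subclusters. Their leading genes come from the same counts that made them and are descriptions with no test. A lead gene had to be in at least 30% of a subcluster's nuclei and was ranked by fold over the other neurons. Subclusters 1 to 4 held nuclei of all 8 libraries, 5 and 9 of 7 and 7 of 5. Subclusters 6, 8 and 10 each came from 1 library, and each may be that library, not a type.

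**Figure D3:**
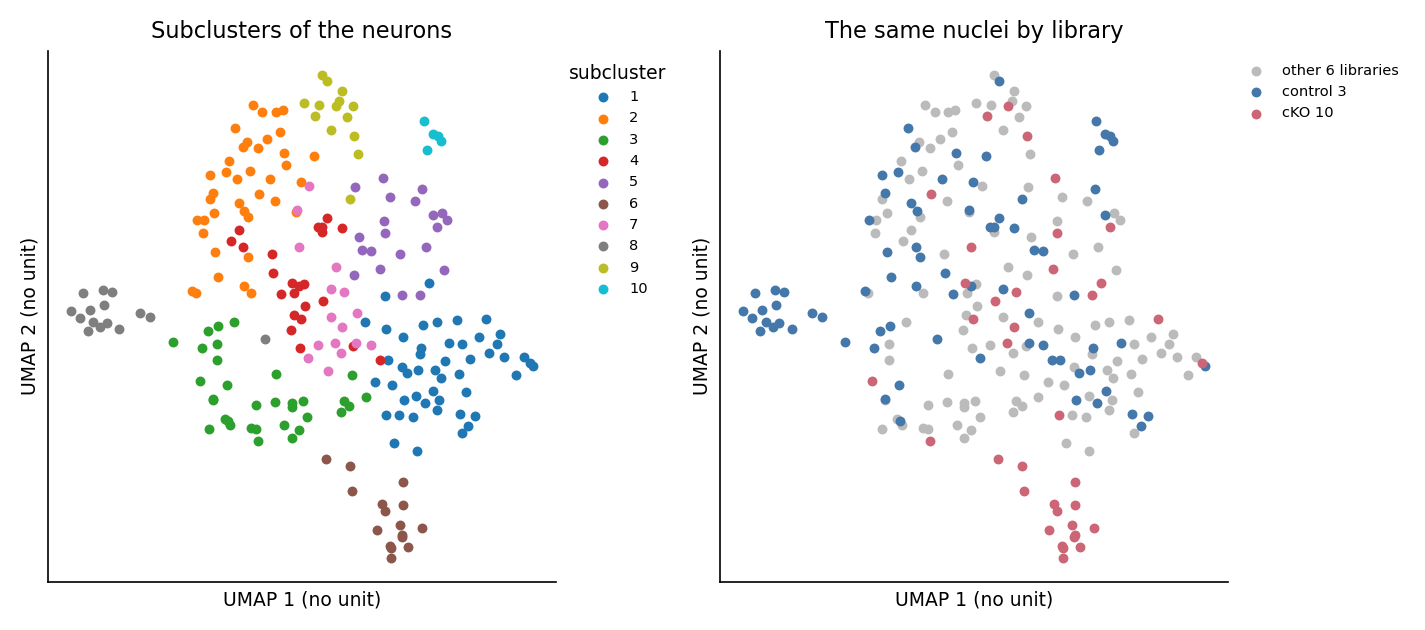
UMAP of the 231 neurons (axes without unit), coloured on the left by subcluster and on the right by library for control 3 and cKO 10, with the other libraries in grey. Subclusters 8 and 10 are made of control 3 nuclei and subcluster 6 of cKO 10 nuclei.

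Subcluster 8 held 15 nuclei of control 3 and was SCN-like. All 10 genes of the SCN list were detected in it, and 8 were at least 10 points more frequent than in the other neurons. The list summed to 4350 CPM here and 1317 CPM over all neurons. It was not particular to this group, with 2637 CPM in subcluster 9 and 2257 CPM in subcluster 2. *Zfhx3* was in 15 of the 15 nuclei, *Syt10* in 12, *Rorb* in 11, *Rgs16* in 10, *Lhx1* in 5, *Vip* in 5 and *Six6* in 4. Its lead genes were *Vip*, the peptide of SCN core neurons (33.3% against 1.39% of the other neurons), *Vipr2*, its receptor (73.3% against 3.70%), *Gm20658*, *Gm15511* and *Prr5l*. *Avp*, the peptide of SCN shell neurons, had a UMI in 11 of the 15, where the library's OLs stood at 22.2%. *Vip* had a UMI in 0.761% of those OLs. *Vip* and *Avp* were found together in 3 nuclei, and *Vip* and *Vipr2* in 2. By class 9 were GABAergic, 0 glutamatergic and 6 in neither. Of 15 clock genes in the files, 10 were at least 10 points more frequent than in the other neurons, with the period genes *Per2* and *Per3* in 9 nuclei each.

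The promoters of the SCN genes are shown because clock proteins bind the E-box CACGTG and because light and peptide signals act on SCN genes through the cyclic AMP element. The sequences are those of RefSeq on build GRCm38.p6 (the counts used GRCm39), give the 250 bases before the start 5′ to 3′ on the gene's strand, and carry the motif in capitals. All 7 genes looked up (*Vip*, *Avp*, *Vipr2*, *Lhx1*, *Rgs16*, *Syt10* and *Six6*) had an entry. *Vip* lies at chr10:5638968-5639217 on the + strand, *Avp* at chr2:130582589-130582838 on the − strand and *Lhx1* at chr11:84525535-84525784 on the − strand.
Vip: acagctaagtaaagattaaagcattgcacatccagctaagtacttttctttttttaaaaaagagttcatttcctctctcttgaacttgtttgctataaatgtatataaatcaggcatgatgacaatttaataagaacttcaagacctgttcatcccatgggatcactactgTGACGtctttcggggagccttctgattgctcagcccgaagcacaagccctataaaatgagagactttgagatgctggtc
Avp: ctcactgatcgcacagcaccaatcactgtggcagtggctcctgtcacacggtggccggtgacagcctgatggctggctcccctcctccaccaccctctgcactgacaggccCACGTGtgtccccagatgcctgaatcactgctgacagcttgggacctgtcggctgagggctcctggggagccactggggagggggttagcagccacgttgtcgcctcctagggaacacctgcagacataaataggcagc
Lhx1: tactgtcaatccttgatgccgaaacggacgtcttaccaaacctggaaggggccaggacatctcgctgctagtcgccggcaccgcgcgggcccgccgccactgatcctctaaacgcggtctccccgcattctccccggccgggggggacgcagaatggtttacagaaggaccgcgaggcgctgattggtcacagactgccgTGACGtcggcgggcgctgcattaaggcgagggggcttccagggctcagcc
The *Avp* window held CACGTG, beginning 139 bases before the start, and the other 6 held none. The shorter element TGACG began 79 bases before the start in *Vip*, 50 in *Lhx1* and 217 in *Syt10*. The full element TGACGTCA, which contains the shorter one, was in none of the 7. Over 32851 promoter windows of 250 bases, searched on both strands, CACGTG was in 6.02%, TGACG in 17.8% and TGACGTCA in 1.55%. A match describes these letters only and is not a bound site.

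Subcluster 6 held 16 nuclei of cKO 10, 15 of them GABAergic, and was subpallial-like. Of the 11 subpallium genes, 7 were detected and 4 were at least 10 points more frequent than in the other neurons. The list was not particular to it, since it summed to 561 CPM here, 837 CPM in subcluster 1 and 816 CPM in subcluster 3, where 9 and 8 of its genes were detected. Of 6 markers of OL precursor cells (OPCs), 3 (among them *Sox6*) were also at least 10 points more frequent, and the list summed to 1806 CPM against 707 CPM over all neurons. *Dlx6os1* was in 15 nuclei, *Gad2* in 15, *Gad1* in 14 and *Slc32a1* in 10. *Lhx6* and *Lhx8*, factors of neurons born in the medial ganglionic eminence, were in 9 and 6 nuclei and together in 3. Outside it, *Lhx6* was seen in 2 neurons and *Lhx8* in 1. *Penk* was in 7 of the 16, and the lead genes were *Gm15680*, *A330008L17Rik*, *Gm45025*, *Sox6* (81.3% against 9.30%) and *Gm15679*. *Sox6* is also a factor of precursors and of this interneuron lineage. The SCN factor *Zfhx3* was in 2 nuclei only.

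Subcluster 2 held 39 nuclei, 17 of them from control 3, with 24 GABAergic and 0 glutamatergic. *Rorb* was in 35 nuclei, *Slc18a2* in 23, *Gal* in 12, *Nts* in 10 and *Isl1* in 10. *Slc18a2* was joined by *Gal* in 8, by *Ddc* in 6 and by *Th* in 2. Its leading gene *Dpy19l2* was in 41.0% against 2.60% of the other neurons. Markers of no single region were joined here, and the group was given no name.

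Subclusters 1 and 3 were also mixed. Subcluster 1 was the largest with 49 nuclei, 24 GABAergic and 9 glutamatergic, which is 9 of the 15 glutamatergic neurons. It was led by *Arpp21*, a regulator of dopamine and calcium signalling (71.4% against 15.9%), *Meis2*, a homeobox factor of striatal projection neurons among others (38.8% against 8.79%), and *Schip1*, and it held 13 of the 16 neurons with *Tac1*. Subcluster 3 held 33 nuclei, 18 GABAergic and 1 glutamatergic. It was led by *Ttn*, *Onecut2* (45.5% against 12.1%) and *Trhde*, and held 10 of the 22 neurons with *Onecut1*. *Onecut1* and *Onecut2*, which are factors of one family, occurred together in 13 neurons.

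Subclusters 7 and 9 were smaller GABAergic groups. Subcluster 7 held 16 nuclei, 13 of them GABAergic, and its lead genes *4933412O06Rik*, *A330015K06Rik*, *B230217J21Rik* and *C230038L03Rik* are uncharacterised, followed by the adrenergic receptor *Adra1b*. Subcluster 9 held 14 nuclei, 8 of them GABAergic, with *Rorb* in 12, *Dlx6os1* in 10, *Slc18a2* in 5 and *Vip* in 2, and was led by *Map3k15*. Neither held a glutamatergic nucleus.

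In 3 subclusters with 49 nuclei together the leading genes were not neuronal, or were so only in part. Subcluster 10 (5 nuclei of control 3) goes against the neuron label and was pituitary-like, with *Pou1f1*, the factor of hormone-making pituitary cells, in 4 nuclei against 0.171% of OLs, and no GABAergic or glutamatergic nucleus. Of the 16 neuron genes that the rule did not read, 10 were detected in it, at a median of 20% of nuclei against 55.1% of the other neurons, although their summed level was 15598 CPM against 13983 CPM over all neurons. Subcluster 5 (21 nuclei) was led by *Ranbp3l* (47.6% against 5.24%), *Slc6a20a*, *Slc7a11*, *Bmp6* and *Cped1*, and all 6 fibroblast markers were detected in it, 5 of them at least 10 points above the other neurons. Markers of other types were also at least 10 points above, 5 of 6 of astrocytes, 4 of 6 of OLs, 4 of 6 of OPCs, 3 of 5 of myeloid cells and 2 of 3 of mural cells. Its 16 further neuron genes were all detected but summed to 4339 CPM against 13983 CPM over all neurons. The 6 markers of the rule summed to 2355 CPM in it and 2366 CPM in subcluster 10, against 8729 CPM over all neurons. The rule read those 6 markers, so their sums are a description only. By its further neuron genes and fibroblast markers, subcluster 5 also goes against the neuron label, although 9 of its 21 nuclei were called GABAergic. Subcluster 4 (23 nuclei) was led by *Pomc* (34.8% against 12.5%), *Gh*, *Tafa1*, *Pcsk2os2* and *Pcsk2*, a prohormone convertase found in 95.7%. It held *Slc17a6* in 10 nuclei, and the nuclei with the most *Avp*, *Oxt* and *Pomc* were in it. Without subclusters 4, 5 and 10, the neurons numbered 29, 12, 59 and 11 in controls 1 to 4 and 30, 11, 8 and 22 in cKO 10 to 13, and control 3 was still highest at 1.27% of barcodes.

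**Figure D4:**
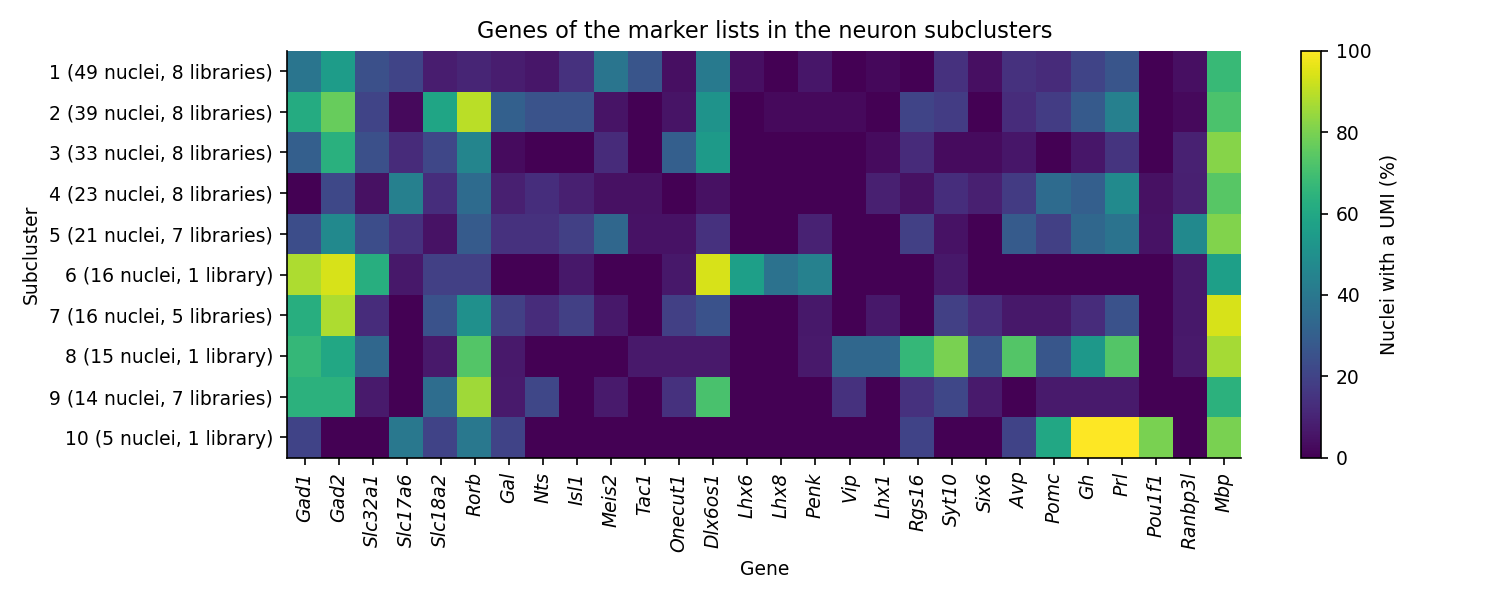
Percentage of nuclei with a UMI (colour, 0 to 100%) for 28 genes of the marker lists (columns) in the 10 subclusters (rows, with their nuclei and libraries). *Syt10*, *Rgs16* and *Vip* stand out in subcluster 8, *Dlx6os1*, *Lhx6* and *Penk* in subcluster 6, *Rorb* and *Slc18a2* in subcluster 2 and *Pou1f1* in subcluster 10, while the myelin gene *Mbp* is in most nuclei of nearly every group.

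Receptor and channel genes were broadly present. Of 15 GABA receptor subunits, 14 were in at least 5% of neurons and 14 were above both glia after thinning, with *Gabra2* in 62.8% and *Gabra3* in 46.3%. The exception was *Gabbr1*, at 13.1% of thinned neurons and 20.1% of thinned OLs. Of 21 glutamate receptor subunits, 20 were in at least 5% and 17 above both glia, with the AMPA receptor subunit *Gria2* in 93.5% and the NMDA receptor subunit *Grin1* in 60.2%. *Grm3* and *Grik1* were more frequent in OLs (78.7% and 63.1%) than in neurons (43.3% and 38.1%). Of 28 sodium, potassium and calcium channels, 25 were above both glia, such as *Scn2a* in 81.4%, *Kcnd2* in 87.0% and *Cacna1e* in 73.2% of neurons. *Kcna1*, *Kcnq3* and *Hcn2* were more frequent in OLs after thinning.

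Whether the cKO genotype came with a change in the neurons was asked with the UMIs of all neurons of a library summed. In such sums fewer neurons of a kind and less RNA per neuron cannot be told apart. No gene met both limits for a call, an edgeR adjusted p below 0.05 and a log2 fold change beyond 0.5 in size (0 of 3629 genes tested, 0% of genes, n = 4 libraries per genotype). At an unadjusted p under 0.05 edgeR gave 163 genes (4.49%). DESeq2 called 0 of 13422 genes and gave 251 at an unadjusted p under 0.05.

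The 5 genes of smallest p were therefore not called. *Mir124a-1hg*, the host transcript of the neuronal microRNA miR-124, stood at 77.8, 71.8, 82.1 and 80.7 CPM in controls 1 to 4 and at 242, 169, 157 and 183 CPM in cKO 10 to 13. All cKO libraries were higher, but the log2 fold change of 1.31 (SE 0.24) had an edgeR adjusted p of 0.420. *Neat1*, a noncoding RNA of nuclear paraspeckles, had 73.7, 124, 109 and 34.6 CPM in controls and 192, 368, 326 and 203 CPM in cKO (log2 fold change 1.57, SE 0.33, edgeR adjusted p = 0.420). *Zfp618*, a zinc finger gene, had 119, 97.9, 109 and 80.7 CPM in controls and 40.3, 19.9, 31.4 and 54.2 CPM in cKO (log2 fold change −1.42, SE 0.31, edgeR adjusted p = 0.437). For these 3 genes and *Gm47283* the libraries of the groups did not overlap. Picking genes by smallest p favours such a gap, and the share of all tested genes that show it was not counted. *Gm47283* had a log2 fold change of 2.30 (SE 0.46, edgeR adjusted p = 0.420). *Chrm3*, a muscarinic acetylcholine receptor, had one of 2.32 (SE 0.55, edgeR adjusted p = 0.540), and its groups overlapped. Among neurons with *St18*, *Aqp4* and *Slc4a4* all at 0, where 2 control and 2 cKO libraries had enough nuclei, *Neat1* had a log2 fold change of −0.0454 and *Zfp618* of −0.77.

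**Figure D5:**
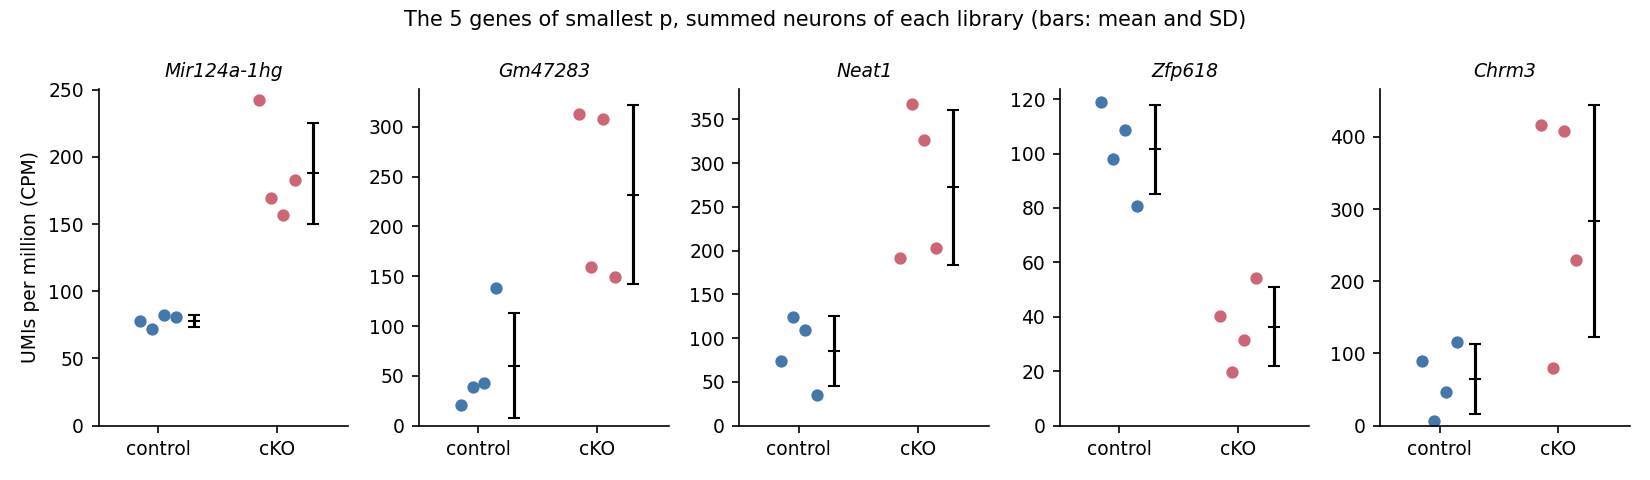
CPM in the summed neurons of each library (points) for the 5 genes of smallest p, with the mean and SD of 4 libraries per genotype (bars); linear axes from 0. Controls and cKO are apart for *Mir124a-1hg*, *Gm47283*, *Neat1* and *Zfp618* and overlap for *Chrm3*, and none passed the adjusted threshold. Picking genes by smallest p favours such a gap.

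Among the marker lists no gene that passed the filter on low counts was called in either direction, and most members did not pass it. Without the filter edgeR called 66 of 21010 genes, some of them list members. *Dlx6os1* (adjusted p = 0.0170) and *Grm8* (0.00593) were among them, as were *Avp*, *Vip*, *Trh*, *Sim1*, *Gh*, *Pomc* and *Prl*, lower in cKO, of which control 3 held 64.6 to 98.4% of the UMIs. *Oxt* and *Lhx6* were higher, with 76.3% of the UMIs in cKO 13 and 81.3% in cKO 10. *Gad1* and *Gad2*, the tested members of the GABA list, had log2 fold changes of 0.76 and −0.08, and the medians were −0.06 over the 24 tested channel genes and 0.01 over all 3629 genes. Over all genes tested with the filter, 163 of 3629 (4.49%) had an unadjusted edgeR p under 0.05, and no list held more than 1 such gene. Among these list genes *Dlx6os1* had a log2 fold change of 1.38 (95.6 CPM on average in controls, 267 in cKO). *Grm8* had one of 1.41, *Adarb2* of 1.07, *Scn1a* of 0.64, *Rgs9* of −0.86 and *Zfhx3* of −0.81. None was called with the filter. As a share of neurons with a UMI, *Dlx6os1* stood at 35.3%, 56.3%, 28.2% and 15.4% in controls 1 to 4 and at 55.3%, 64.3%, 45.5% and 44.4% in cKO 10 to 13, so the groups overlapped. *Piezo1* and *Piezo2* did not pass the filter on low counts in neurons.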

How the data were processed

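Single-nucleus RNA sequencing (10x Next GEM 3′ v3.1) was done on nuclei isolated from pooled ONs by Dounce homogenisation and ultracentrifugation. The authors deposited raw UMI counts per gene and barcode, unfiltered, for 33696 genes and 8 libraries; per the labels, Cell Ranger 7.0.0 and GRCm39 were used. The study's removal of free RNA and doublets is not part of these counts. Each library held 754270 to 987763 barcodes with a UMI, and 40845 in all passed 1000 UMIs and the mitochondrial limit of 5%. Neurons, OLs and astrocytes were taken by marker counts. Doublets were scored with Scrublet, and removal of the top 0.8% per 1000 barcodes, which takes 1 neuron, was an alternative. Shares were thinned to 1000 UMIs per nucleus. Subclusters came from scanpy 1.11.5 (2000 variable genes, 20 components, 15 neighbours, resolution 1). Counts summed per library were tested with edgeR 4.0.16 (quasi-likelihood, Benjamini-Hochberg) in R 4.3.3, with DESeq2 1.42.0 as an alternative, and the fit was tested on simulated counts. Shares were compared by exact permutation over 4 and 4 libraries. Named genes were the members of the lists, the 5 lead genes of each subcluster and the 5 genes of smallest p. Members and lists were chosen with earlier results of these data known. Some genes are not reported here.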

Additional observations from a re-analysis of the deposited data

Results flagged for a closer look

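Among 54 sets of 4 libraries examined, 9 had a library far from the other 3 by Dixon's gap ratio, and chance flags about 1 in 20 such sets. In control 3, 48.7% of neurons were in neither transmitter class against 37.5 to 38.5% in the other controls. In the same library *Avp* had a UMI in 39.7% of neurons (5.88 to 7.69% in the other controls) and *Gh* in 64.1% (0 to 7.69%). In cKO 12, 27.3% of neurons were glutamatergic against 3.70 to 7.14% in the other cKO libraries, which is 3 of 11 nuclei. *Penk* had a UMI in 15.4% of neurons of control 4 against 0 to 2.56% in the other controls. In cKO 11 *Prl* had a UMI in 35.7% and *Gh* in 7.14% of neurons, and in the other cKO libraries neither had one. *Lhx8* was in 15.8% of neurons of cKO 10 and in 2.94% of those of control 1, and in none of the neurons of the other libraries of the same genotype. The share of neurons in control 3 had a gap ratio of 0.827, just under the critical value. Where the other libraries are all at 0 the ratio is fixed by any nucleus at all, as for *Gh* in cKO 11 (1 of 14 nuclei) and *Lhx8* in control 1 (1 of 34). None of these was tested further.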

How the results depend on the processing

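The difference in neuron share (cKO minus control) kept its sign under all 17 alternatives, from −0.467 to −0.151 points, and from −0.475 to −0.0332 with 1 library left out. The GABAergic difference ran from −5.05 to 9.68 points, the highest with *St18*, *Aqp4* and *Slc4a4* at 0, and from −1.80 to 7.51 with 1 library left out. It turned negative without the 164 nuclei holding at least 2 UMIs of another counted type's markers (−5.05 points) and without 1-library subclusters (−3.90). Without the 10 nuclei in which pituitary hormone genes took over 1% of the UMIs it was −0.770 points. It was also negative with a class from 1 UMI (−0.636) and after thinning (−3.75). The glutamatergic difference was −0.284 points with at least 5 markers and −1.30 with a class from 1 UMI. It was 6.01 with *St18*, *Aqp4* and *Slc4a4* at 0, and −1.64 to 6.63 with 1 library left out. Called genes numbered 0 with any 1 library left out. With at least 5 markers (3 control and 2 cKO libraries) they numbered 2 of 4691 tested, among them *Ranbp3l* (log2 fold change 4.80). Without a filter on low counts they numbered 66 of 21010 (43 higher in cKO, 23 lower, 35 with most UMIs in 1 library). Without that filter the 5 genes of smallest p were all past the threshold. With *St18*, *Aqp4* and *Slc4a4* at 0 (2 control and 2 cKO libraries), *Neat1* had a log2 fold change of −0.0454 and *Zfp618* of −0.77. Causes were not tested.

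No paired analysis was possible because the control libraries carry replicate numbers 1 to 4 and the cKO libraries 10 to 13, so they share none. GABAergic and glutamatergic neurons were not compared within libraries, since only control 3 had at least 5 nuclei of each. The genotype test could not be fitted in glutamatergic neurons or without the 164 nuclei holding another counted type's markers. After thinning, no nucleus was glutamatergic. Leaving out subclusters led by fibroblast or pituitary genes, or from 1 library, was chosen after seeing the data. With 11 to 78 neurons per library, rare groups are not detectable. A count of 0 of 231 neurons allows a share with a UMI of up to 1.30%, and does not bound the share that makes the transcript.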

Other observations

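Genes of immature neurons and of recent activity were also counted. *Dcx*, a microtubule protein of young neurons that some adult neurons keep, had a UMI in 85 neurons (36.8%) and 1.03% of OLs, and *Sox11* in 49 (21.2%) and 0.766%. The proliferation genes *Mki67* and *Top2a* were in 4 and 1 neurons. Of 11 immediate early genes, 5 were in at least 5% of neurons and 6 were above both glia after thinning. *Npas4*, a factor induced by neuronal activity, was in 10 neurons (4.33%) and 0.0488% of OLs, whereas *Fos* was in 2.60% of neurons against 6.53% of astrocytes. Of the 15 clock genes in the files, all were in at least 5% of neurons and 4 were above both glia after thinning.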
